A study of Mus musculus with 18 samples.

Results

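Ung, Msh6, Exo1, Polh, Rev1, Apex1 and Apex2 encode proteins that process or copy deaminated DNA during somatic hypermutation of antibody genes, and these 7 genes were chosen by name. All 7 were found among the 21761 genes of the expression table, and all 7 were among the 11522 genes with FPKM (fragments counted per length of exon and per library size) above 1 in at least 2 libraries, the set that was tested.

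Each RNA-seq library held 5000 sorted cells, and mouse B lineage cells of 3 types and 2 genotypes were sequenced, with 3 libraries in each of the 6 groups, to ask what the loss of Dnmt3a and Dnmt3b, the enzymes that add DNA methylation at new sites, does to expression before and after differentiation. Naive lymph node B cells (nB, sorted as B220+ Fas- GL7-) came from mice that were not immunized. B cells of the germinal center (GCB, B220+ Fas+ GL7+ and binding phycoerythrin, PE) and bone marrow plasma cells (BMPC, CD138+) came from mice 30 days after immunization with PE in adjuvant. Dnmt3-deficient mice carried 1 copy of a Cre allele that is active in B lineage cells and, at the methylase genes, were Dnmt3a fl/fl and also Dnmt3b fl/fl. Dnmt3-sufficient littermates had no Cre and carried the same floxed alleles, so that the genotypes differed in Cre and deletion was restricted to B lineage cells. The labels give a mixed B6;129S4 background and the mice were young adults. Per the study's methods each GCB library pooled 2 mice, while nB and BMPC libraries came from single mice. Each nB and GCB group held 2 female libraries and 1 male library, and each BMPC group 1 female and 2 male. Sex was thus partly confounded with BMPC against the other types. The p-values measure the spread between these libraries.

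In a germinal center, cytosine in the antibody genes is deaminated to uracil, and the lesion is then handled in several ways. Ung excises the uracil and leaves a site without a base, which Apex1 or Apex2 can cut. Msh6, as part of a mismatch recognition dimer, marks the mismatch, Exo1 removes a stretch of the strand around it, and the error-prone polymerases Polh and Rev1 fill the gap or copy past the damage. Naive cells do not hypermutate, and plasma cells have left the process behind.

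Depth on genes, as recovered from the FPKM values, was 6692516 to 8987922 reads per nB library and 7644544 to 8903872 per GCB library. BMPC libraries were shallower, at 1355231 to 3803197 reads. Libraries of a BMPC group also differed more from each other, with a median SD of log2(FPKM + 1) over tested genes of 0.78 and 0.82 against 0.27 to 0.41 in the nB and GCB groups. Markers of the labelled types were present. The summed FPKM of 6 GCB markers was 882 to 1025 in GCB and at most 81.4 elsewhere, and that of 7 BMPC markers was 18915 to 51504 in BMPC and at most 1520 elsewhere. The BMPC libraries also held transcripts that mark other cells. Summed FPKM there was 76.4 to 255 for 6 T cell markers and 21.3 to 595 for 8 neutrophil markers. It was 40.5 to 168 for 7 macrophage markers, of which 1 or 2 were above 0 in each BMPC library. The sum was 182 to 2893 for 5 erythroid markers and 379 to 800 for 6 early B cell markers (182 to 378 in nB and GCB). The highest sums in nB or GCB were 72.6 (T cell), 0.461 (neutrophil), 73.9 (macrophage) and 290 (erythroid). The part of these transcripts in the BMPC values below was not tested. Per the study's methods, the flow cytometry panels held stains for T cell and myeloid surface proteins that served to remove autofluorescent cells. In bulk libraries, fewer cells that express a gene and less RNA per cell cannot be told apart.

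Promoters are shown for 4 genes that were higher in GCB than in nB in both genotypes. RefSeq promoter entries matched 5 of the 7 genes, and those of Exo1 and Apex2 were not matched. The bases before the start site were placed on NCBIM37 (mm9) by exact match and trimmed of coding and UTR bases of the gene or its neighbour. They are written along the gene, and capitals mark a CCAAT box on either strand.
Msh6, chr17:88374140-88374389, + strand: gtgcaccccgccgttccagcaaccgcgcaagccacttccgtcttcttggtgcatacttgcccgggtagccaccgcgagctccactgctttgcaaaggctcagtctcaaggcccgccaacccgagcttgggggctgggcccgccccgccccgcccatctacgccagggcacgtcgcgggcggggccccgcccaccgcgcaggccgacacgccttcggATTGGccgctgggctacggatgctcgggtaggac
Polh, chr17:46339591-46339803, - strand: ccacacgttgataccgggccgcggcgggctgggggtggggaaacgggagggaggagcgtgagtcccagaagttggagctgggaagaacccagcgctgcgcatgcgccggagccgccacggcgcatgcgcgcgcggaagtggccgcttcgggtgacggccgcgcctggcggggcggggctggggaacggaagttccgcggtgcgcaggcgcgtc
Rev1, chr1:38186512-38186761, - strand: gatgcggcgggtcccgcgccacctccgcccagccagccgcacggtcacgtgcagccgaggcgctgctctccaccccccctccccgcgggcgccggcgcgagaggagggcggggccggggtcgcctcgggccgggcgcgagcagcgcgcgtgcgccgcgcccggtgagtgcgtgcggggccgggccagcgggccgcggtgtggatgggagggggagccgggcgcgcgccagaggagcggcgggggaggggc
Apex1, chr14:51544569-51544623, + strand: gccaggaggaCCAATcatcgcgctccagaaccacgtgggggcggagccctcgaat

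The 250 bases before the start were searched on both strands for CCAAT and for 3 forms of the E2F site. The first form was TTGGCGC, whose letters can overlap those of a box on the other strand. Another was TTCGCGC, a variant with the same ending. The last of these forms that were searched for was TTCCCGC. The CCAAT box stood in the Apex1 promoter, its first base 45 bases before the start, and on the opposite strand of the Msh6 promoter, 34 bases before it. Of 32851 promoters of that length, 33.8% held CCAAT. The only E2F form found was TTGGCGC in Apex1, 205 bases before the start and inside coding sequence of the neighbour Osgep. Any of the 3 forms stood in 6.69% of all promoters. Polh, Rev1 and Ung held none of these letters in the window. The 5 promoters were 62.8% to 83.6% G and C, against a median of 52.4% over all promoters.

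**Figure D1:**
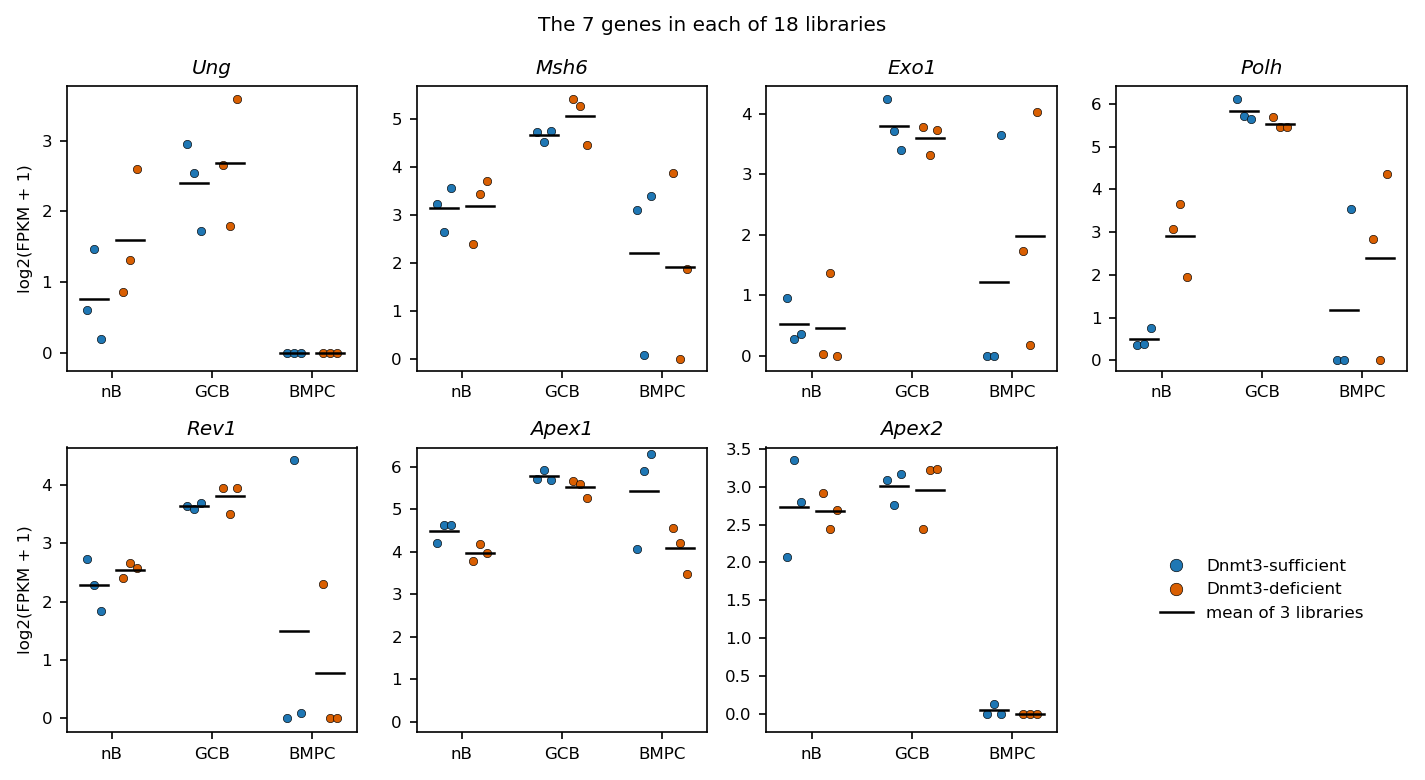
Level of each gene as log2(FPKM + 1) in nB, GCB and BMPC, with 1 point per library, blue for Dnmt3-sufficient and orange for Dnmt3-deficient, and a bar at the mean of 3 libraries; vertical scales differ between genes. Msh6, Exo1, Polh, Rev1 and Apex1 lay higher in all 6 GCB than in all 6 nB libraries, Ung was at 0 in all 6 BMPC libraries, and Apex2 was at 0 in 5 of them.

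The comparison of GCB with nB asked how the 7 genes differed between naive and germinal center cells. Of the 7 genes, 5 rose in Dnmt3-sufficient cells, Msh6, Exo1, Polh, Rev1 and Apex1, and none fell, where 11.4% of all 11522 genes tested rose. The same 5 rose in Dnmt3-deficient cells, where 10% of all genes rose. Genes are called risen or fallen where limma's adjusted p did not exceed 0.05 and log2(FPKM + 1) changed by 1 or more, a scale that understates the change of low genes. Over the 7 genes the median change was 1.52 (Dnmt3-sufficient) and 1.53 (Dnmt3-deficient), against -0.11 and -0.13 over all genes. The comparisons in the 2 genotypes share no library but share 1 estimate of the spread, made from these 12 libraries.

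Uracil excision came first in the order of the pathway, and its gene did not pass. Ung (Entrez 22256, chr5:114580395-114589332 on NCBIM37, + strand), the uracil DNA glycosylase, had 0.523, 1.77 and 0.146 FPKM in the Dnmt3-sufficient nB libraries, against 6.72, 4.82 and 2.29 in GCB. These groups did not overlap, as for 20.6% of all genes in that direction (19.7% in Dnmt3-deficient cells). The difference was 1.64 on the log2 scale (SE 0.60, limma adjusted p 0.055), and it was past the threshold in 4 of the other settings and without any 1 of 5 libraries (Dnmt3-sufficient nB replicate 2 or GCB replicate 3, or Dnmt3-deficient nB replicate 3 or GCB replicate 2 or 3), with adjusted p of 0.015 to 0.16 over all settings. In Dnmt3-deficient cells Ung was at 0.822, 1.497 and 5.04 FPKM in nB and 5.31, 2.47 and 11.0 in GCB, which overlapped, with a difference of 1.09 (SE 0.60, limma adjusted p 0.20). Ung was the gene with the fewest reads of the 7 in GCB, 40 to 204 per library.

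Both mismatch repair genes rose. Msh6 (Entrez 17688, chr17:88374390-88390223, + strand), the promoter of which is printed above, was at 8.48, 5.24 and 10.9 FPKM in Dnmt3-sufficient nB and 25.6, 22.0 and 26.3 in GCB, a change of 1.52 (SE 0.38, limma adjusted p 0.011). In Dnmt3-deficient cells it was at 4.32, 9.93 and 12.1 FPKM in nB and 42.0, 38.0 and 21.2 in GCB, a change of 1.87 (SE 0.38, limma adjusted p 0.0040). The lowest GCB library thus lay above the highest nB library in each genotype. Msh6 shares 25 exon bases with Fbxo11 on the other strand, which was lower in GCB (log2 changes -1.63 and -1.24, both past the threshold).

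Exo1 (Entrez 26909, chr1:177810909-177841527, + strand), the exonuclease that acts after Msh6, was near 0 in nB. Its Dnmt3-sufficient nB libraries had 0.950, 0.214 and 0.283 FPKM, which is 35, 9 and 14 reads, and the GCB libraries had 18.02, 12.2 and 9.598 FPKM, a change of 3.26 (SE 0.41, limma adjusted p 0.00019). In Dnmt3-deficient cells it was at 0.0227, 1.58 and 0 FPKM in nB and 12.7, 8.95 and 12.3 in GCB, a change of 3.14 (SE 0.41, limma adjusted p 0.00026). The 6 GCB libraries of Msh6, Exo1, Polh, Rev1 and Apex1 each lay above all 6 nB libraries, as 13.2% of all genes did. For Exo1 every GCB library was above every nB library, and 2 of the Dnmt3-deficient nB libraries held 1 read or none.

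The polymerase genes rose too, and Polh by the most of the 7 in Dnmt3-sufficient cells. Polh (Entrez 80905, chr17:46308953-46339574, - strand), the polymerase that makes most mutations at A and T bases, was at 0.290, 0.304 and 0.690 FPKM in Dnmt3-sufficient nB and 68.2, 51.8 and 49.2 in GCB. That is 132-fold by the ratio of means and 5.33 on the log2 scale (SE 0.37, limma adjusted p 4.0e-06). In Dnmt3-deficient cells it was at 7.47, 11.7 and 2.84 FPKM in nB and 51.0, 43.3 and 42.8 in GCB, a ratio of 6.23 and a change of 2.64 (SE 0.37, limma adjusted p 0.00043).

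Rev1 (Entrez 56210, chr1:38109632-38186507, - strand), a translesion polymerase that inserts C opposite sites without a base, was at 5.64, 3.88 and 2.59 FPKM in Dnmt3-sufficient nB and 11.5, 11.1 and 12.0 in GCB, a change of 1.36 (SE 0.26, limma adjusted p 0.0023). In Dnmt3-deficient cells it was at 4.28, 5.35 and 4.99 FPKM in nB and 14.6, 10.4 and 14.5 in GCB, a change of 1.26 (SE 0.26, limma adjusted p 0.0039). The groups did not overlap in either genotype. Rev1 shares 1239 exon bases with Eif5b on the other strand. Per the study's methods, only reads that overlapped exons uniquely were counted. The use of strand in counting is not given in the sources used here. Eif5b was at 21.5 ± 4.88 FPKM (SD, n = 3) in Dnmt3-sufficient nB and 29.9 ± 6.78 in GCB, a difference of 0.46 that did not pass (limma adjusted p 0.096).

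The endonuclease genes differed from each other. Apex1 (Entrez 11792, chr14:51544643-51546814, + strand), the main enzyme that cuts DNA at sites without a base, was at 17.4, 23.8 and 23.8 FPKM in Dnmt3-sufficient nB and 51.3, 59.5 and 50.4 in GCB, a change of 1.28 (SE 0.18, limma adjusted p 0.00033). In Dnmt3-deficient cells it was at 12.7, 17.2 and 14.8 FPKM in nB and 50.1, 47.6 and 37.5 in GCB, a change of 1.53 (SE 0.18, limma adjusted p 0.00011). Its GCB libraries lay above all its nB libraries. Apex1 shares 877 exon bases with Tmem55b on the other strand. The exon length behind the FPKM of Apex1 was 1185 bases, and the effect of the shared part on its level was not tested. Tmem55b moved the opposite way, from 15.1 ± 6.61 FPKM in Dnmt3-sufficient nB to 5.26 ± 0.605 in GCB (log2 change -1.27, limma adjusted p 0.015). In Dnmt3-deficient cells the difference of Tmem55b was -0.74 and did not pass (limma adjusted p 0.13).

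Apex2 (Entrez 77622, chrX:146954062-147024411, - strand), its paralog, was at 3.198, 9.23 and 5.94 FPKM in Dnmt3-sufficient nB and 7.55, 5.79 and 8.05 in GCB. In Dnmt3-deficient cells it was at 6.58, 4.44 and 5.47 FPKM in nB and 4.43, 8.31 and 8.44 in GCB. The groups overlapped in both genotypes, and the differences of 0.27 and 0.28 (SE 0.36, limma adjusted p 0.60 and 0.59) did not pass, with the sign of the first turning without Dnmt3-sufficient nB replicate 1. Apex2 shares 311 exon bases with Alas2 and 123 with Pfkfb1 on the other strand, and Pfkfb1 rose in Dnmt3-sufficient cells (log2 change 3.36, limma adjusted p 0.0078).

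**Figure D2:**
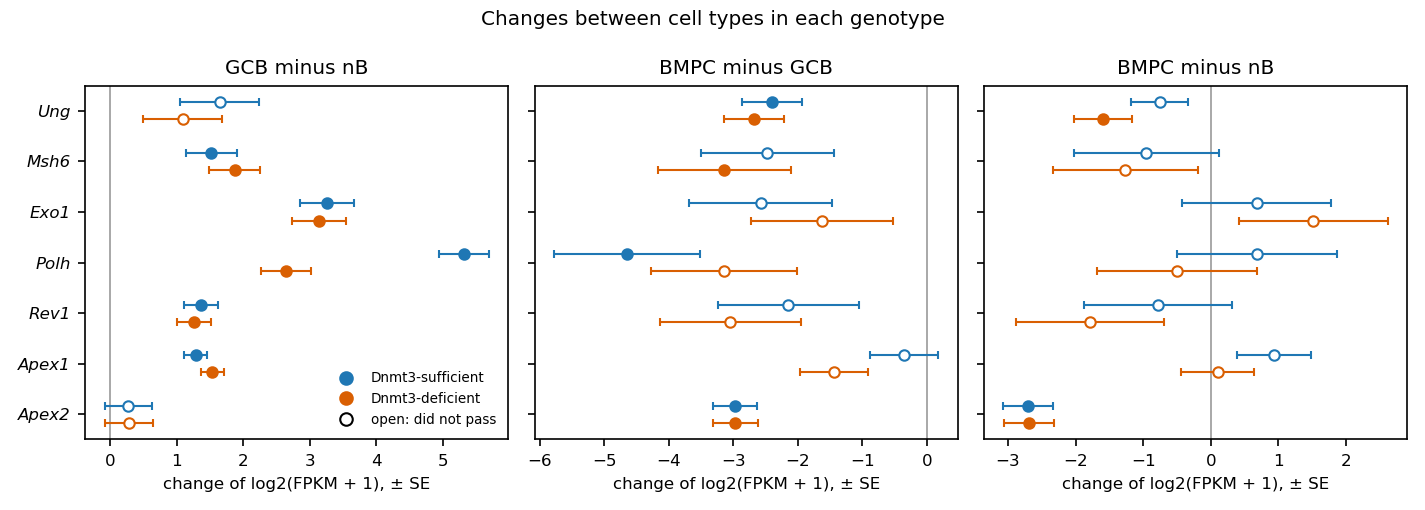
Change of log2(FPKM + 1) with its standard error (limma) for each gene, GCB minus nB, BMPC minus GCB and BMPC minus nB, blue for Dnmt3-sufficient and orange for Dnmt3-deficient, with filled points for changes that passed. In GCB minus nB, 5 genes were filled in each genotype, and error bars were wider in the panels with BMPC.

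Several calls depended on how the spread was estimated. In a fit to all 18 libraries with 1 spread per gene, to which the BMPC libraries contribute, 3 genes rose in Dnmt3-sufficient cells (Ung, Exo1 and Polh) and 2 in Dnmt3-deficient cells (Exo1 and Apex1). There Msh6, Rev1 and Apex1 in Dnmt3-sufficient cells had adjusted p of 0.30, 0.38 and 0.082, and Msh6, Polh and Rev1 in Dnmt3-deficient cells 0.19, 0.081 and 0.44. With weights by cell type in that fit, the 5 genes passed in each genotype, and Ung did in Dnmt3-sufficient cells.

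Per length of exon, the 7 genes stood in a different order in the 2 cell types. No correction for exon bases shared with neighbours was made here. Apex1 shares 877 bases, against an exon length of 1185, and Rev1 1239 against 4849. If reads in shared bases were left out of the counts, the FPKM of these genes would be understated. The places of Apex1 and Rev1 in the order below are thus uncertain. In GCB, over the 6 libraries of both genotypes, Polh had the highest mean level, 51.1 ± 9.24 FPKM (SD, n = 6), followed by Apex1 at 49.4 ± 7.12, Msh6 at 29.2 ± 8.72, Rev1 at 12.4 ± 1.78, Exo1 at 12.3 ± 3.21, Apex2 at 7.10 ± 1.62 and Ung at 5.44 ± 3.23. Polh and Apex1 overlapped, as did Apex1 and Msh6, Rev1 and Exo1, and Apex2 and Ung. The highest Ung library (11.0) also lay above the lowest of Rev1 (10.4) and Exo1 (8.95). The lowest Msh6 library (21.2) was above the highest Exo1 library (18.02). In nB, Apex1 led with 18.3 ± 4.61 FPKM, above every library of the other 6 genes, and Msh6 (8.49 ± 3.12), Apex2 (5.81 ± 2.06), Rev1 (4.46 ± 1.124) and Polh (3.88 ± 4.71) overlapped. Ung (1.63 ± 1.77) and Exo1 (0.508 ± 0.628) had the lowest means there and also overlapped. The highest Ung library (5.04) lay above the lowest library of Msh6, Apex2, Rev1 and Polh, and the highest Exo1 library (1.58) above the lowest of Polh. Within genotypes the place of Polh in nB differed, since its mean was the lowest of the 7 in Dnmt3-sufficient nB, 0.428 FPKM, with libraries that overlapped those of Exo1 and Ung, and was 7.34 FPKM in Dnmt3-deficient nB.

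The rest of the repair machinery was read from lists of the same pathways that leave out the 7 genes, as counts of genes tested. In GCB against nB, 11.4% (Dnmt3-sufficient) and 10% (Dnmt3-deficient) of all genes rose, and 15% and 13.5% fell. Of 20 other base excision repair genes, 7 rose and 1 fell in GCB against nB in each genotype. The 3 with the largest changes in Dnmt3-sufficient cells were the glycosylase genes Neil3, listed at 0 in nB and at 23.3 ± 3.68 FPKM (SD, n = 3) in GCB, and Neil1, from 19.1 ± 12.4 to 288 ± 15.4 FPKM, and the ligase gene Lig1, from 10.6 ± 5.96 to 122 ± 10.9 FPKM. Of 15 other mismatch repair and repair synthesis genes, 6 rose in Dnmt3-sufficient and 7 in Dnmt3-deficient cells and none fell. The leading ones were the clamp loader genes Rfc5, from 4.23 ± 1.79 to 30.6 ± 3.97 FPKM, and Rfc4, from 49.9 ± 6.84 to 315 ± 47.9, and the clamp gene Pcna, from 93.9 ± 5.11 to 508 ± 45.6, all of which serve DNA replication too.

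Of 14 other translesion genes, 3 rose and 1 fell in Dnmt3-sufficient and 2 rose and 1 fell in Dnmt3-deficient cells, where 11.4% and 10% of all genes rose and 15% and 13.5% fell. The 3 that rose in Dnmt3-sufficient cells were the ubiquitin ligase gene Rad18 (6.15 ± 1.74 to 17.1 ± 1.68 FPKM), the conjugating enzyme gene Ube2a (50.04 ± 18.3 to 108 ± 7.54) and the deubiquitinase gene Usp1 (10.2 ± 5.85 to 31.0 ± 3.74). Without Dnmt3-sufficient nB replicate 2, the change of Ube2a was 0.85, under the minimum.

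Of 16 genes of deaminase relatives and cofactors, 4 rose and 1 fell in Dnmt3-sufficient cells, where 11.4% of all genes rose and 15% fell. In Dnmt3-deficient cells 4 rose, where 10% of all genes rose. The leading ones in Dnmt3-sufficient cells were Apobec1, a cytidine deaminase gene related by sequence (42.1 ± 6.02 to 158 ± 47.4 FPKM), and Rpa2 and Rpa3, which encode subunits of the single-strand binding protein (34.6 ± 11.3 to 115 ± 10.9 and 55.3 ± 14.9 to 170 ± 6.89 FPKM). Of 18 genes that act on switch recombination breaks, 3 rose in Dnmt3-sufficient and 2 in Dnmt3-deficient cells, where 11.4% and 10% of all genes rose. In Dnmt3-sufficient cells these were H2afx, a histone variant marked at breaks (1.66 ± 0.855 to 13.6 ± 3.87 FPKM), Mre11a, a nuclease of the break sensor (3.93 ± 2.94 to 19.4 ± 3.62), and Lig4, the end joining ligase (2.68 ± 2.17 to 12.5 ± 1.86). In the fit with 1 spread over all 18 libraries, Apobec1, Rpa2, Rfc5, Usp1, Rad18, Ube2a and Mre11a did not pass.

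**Figure D3:**
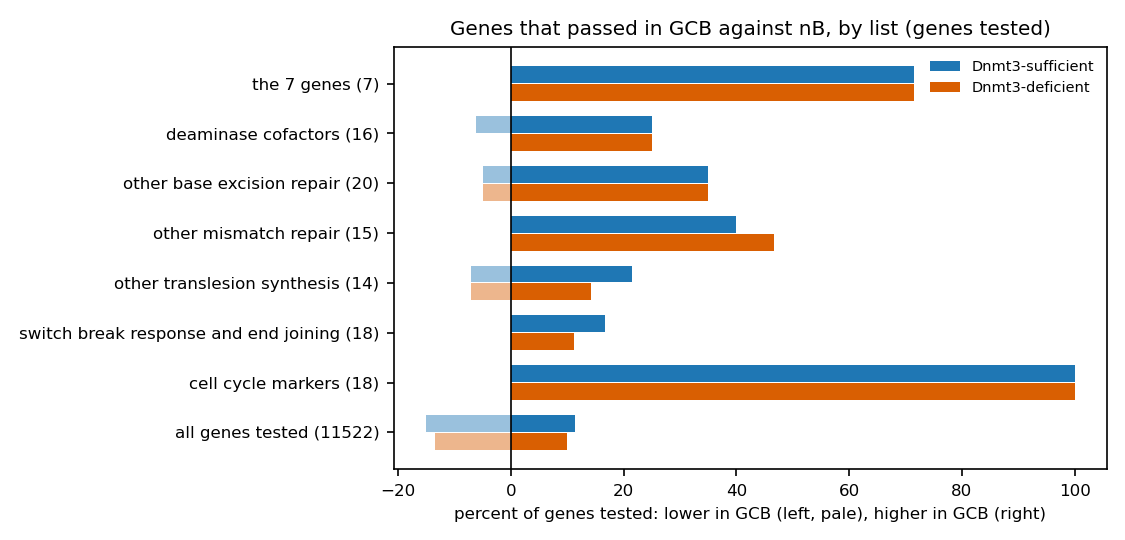
Percent of the tested genes of each list that passed in GCB against nB, higher to the right and lower to the left in pale colour, blue for Dnmt3-sufficient and orange for Dnmt3-deficient, with the number of genes tested in brackets. The 7 genes (5 of 7 higher) and the cell cycle markers (18 of 18 higher) are shown beside the other repair lists, and all 11522 genes are given for comparison.

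Proliferation moved with the same comparison. All 18 cell cycle markers rose in GCB against nB in each genotype, where 11.4% and 10% of all genes rose. The median change of the markers was 5.10 and 4.97, and their summed level was 128.8 to 208 FPKM in nB and 3433 to 3815 in GCB. The leading ones were Rrm2, a subunit of the enzyme that makes deoxynucleotides (1.67 ± 2.27 to 565 ± 35.6 FPKM in Dnmt3-sufficient cells), and the mitotic cyclin genes Ccnb2 (1.47 ± 2.55 to 288 ± 18.04) and Ccnb1 (2.68 ± 3.25 to 374 ± 37.8). Several repair genes, Exo1 and Msh6 among them, are known to be expressed with DNA replication, and the part of proliferation in the changes of the 7 genes was not tested. Of 6 T cell markers 3 fell in each genotype, where 15% and 13.5% of all genes fell. The summed level of these markers was 25.4 to 72.6 FPKM over nB and 0.569 to 6.46 over GCB libraries, and their part was not tested either.

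BMPC were next compared with GCB. The GCB came from lymph nodes and were sorted for PE binding, while BMPC were bone marrow cells sorted by CD138. The step from one cell to the other was thus not followed. Of the 7 genes, 3 fell in Dnmt3-sufficient cells (Ung, Polh and Apex2) where 15.6% of all genes fell, and 3 in Dnmt3-deficient cells (Ung, Msh6 and Apex2) where 20% of all genes fell. None rose. Their median change was -2.47 (Dnmt3-sufficient) and -2.97 (Dnmt3-deficient), against -0.56 and -0.73 over all genes, or -0.46 and -0.54 with median of ratios scaling.

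Ung was listed at 0 in all 6 BMPC libraries. At its mean GCB level the BMPC libraries would have held 19.4 to 40.1 reads each. With each BMPC library set at a floor of 3 reads, Ung was at least 10.6-fold lower than in GCB in Dnmt3-sufficient and at least 8.0-fold lower in Dnmt3-deficient cells, where the bound was 4.96-fold without GCB replicate 3 (log2 changes -2.40 and -2.68, SE 0.47, limma adjusted p 0.0046 and 0.0023). Since all BMPC values are equal, this SE rests on the GCB libraries. The floor, here and below, covers counting error only. Spread between BMPC libraries can be larger, as for Rev1 with 0, 379 and 1 reads in the Dnmt3-sufficient ones. With weights by cell type the call in Dnmt3-sufficient cells was lost (limma adjusted p 0.075).

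Apex2 was at 0.0886 FPKM, 2 reads, in Dnmt3-sufficient BMPC replicate 2 and at 0 in the other 5 BMPC libraries. At its mean GCB level these libraries would have held 56.8 to 160.9 reads. Against the floor of 3 reads per library, and for counting error only, Apex2 was at least 42.6-fold lower than in GCB in Dnmt3-sufficient cells. In Dnmt3-deficient cells it was at least 23.4-fold lower (log2 changes -2.97 in each, SE 0.34, limma adjusted p 0.00024 and 0.00021). Apex1 had 27 to 337 reads in the same libraries. Apex2 kept its call in every alternative that was run, with adjusted p of at most 0.0027.

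The genes of mismatch repair and translesion synthesis were patchy in BMPC. Polh was at 0, 0 and 10.7 FPKM in Dnmt3-sufficient BMPC and at 6.17, 0 and 19.5 in Dnmt3-deficient BMPC, below all GCB libraries in each genotype, as for 32.2% and 35.7% of all genes, with changes of -4.65 (SE 1.13, limma adjusted p 0.014) and -3.14 (SE 1.13, limma adjusted p 0.063). The second did not pass in this fit and passed without Dnmt3-deficient BMPC replicate 3 (0.025) or Dnmt3-sufficient BMPC replicate 3 (0.027) and in both fits to all 18 libraries (limma adjusted p 0.019 with 1 spread and 0.012 with weights by cell type).

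Msh6 was at 7.69, 0.0617 and 9.57 FPKM in Dnmt3-sufficient BMPC and at 13.8, 0 and 2.69 in Dnmt3-deficient BMPC. It too lay below all GCB libraries, with changes of -2.47 (SE 1.03, limma adjusted p 0.11) and -3.14 (SE 1.03, limma adjusted p 0.046). The call in Dnmt3-deficient cells was lost in 8 of the 12 fits that left out 1 library, those without any 1 of the 6 GCB libraries or without Dnmt3-deficient BMPC replicate 2 or 3 (limma adjusted p up to 0.13), and in 5 of the other alternatives. The difference in Dnmt3-sufficient cells passed in both fits to all 18 libraries (limma adjusted p 0.043 and 0.042).

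Exo1 was at 0, 0 and 11.6 FPKM in Dnmt3-sufficient BMPC and at 2.34, 0.134 and 15.3 in Dnmt3-deficient BMPC, so that 1 library of each genotype was within or above its GCB range and the groups overlapped. Its differences from GCB were -2.58 and -1.63 (SE 1.10 and 1.10, limma adjusted p 0.12 and 0.30). Without Dnmt3-sufficient BMPC replicate 3 the first was -3.79 and passed (limma adjusted p 0.018), and it also passed in both fits to all 18 libraries and with voom (adjusted p 0.045, 0.046 and 0.017). The libraries with Exo1 at 11.6 and 15.3 FPKM were also those with the highest Polh, and the correlation of the pair over the 6 BMPC libraries was 0.97, over the 6 GCB libraries 0.82 and over the 6 nB libraries 0.19 (Pearson, log2(FPKM + 1), libraries that differ in depth and in their content of other cells). It was the highest BMPC correlation among pairs of the 7 genes, the others being -0.57 to 0.87. For each gene of the pair, 3 of the 6 BMPC libraries were at or under the floor of 3 reads.

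Rev1 was at 0, 20.6 and 0.0568 FPKM in Dnmt3-sufficient BMPC and at 3.92, 0 and 0 in Dnmt3-deficient BMPC. A single library, Dnmt3-sufficient BMPC replicate 2 with 379 reads, was above all GCB libraries, while 4 of the 6 had 1 read or none. The differences from GCB were -2.14 and -3.04 (SE 1.10, limma adjusted p 0.19 and 0.064). Without that library both passed, at -3.61 and -3.04 (limma adjusted p 0.0057 and 0.0055). The second also passed without Dnmt3-deficient BMPC replicate 1 (-3.81, limma adjusted p 0.035), in both fits to all 18 libraries and with voom (adjusted p 0.015, 0.0078 and 0.021).

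Apex1 was the gene with reads in every BMPC library, at 15.8, 58.4 and 78.4 FPKM in Dnmt3-sufficient and 22.7, 17.4 and 10.1 in Dnmt3-deficient BMPC. Dnmt3-sufficient BMPC overlapped GCB (-0.35, SE 0.53, limma adjusted p 0.67), and Dnmt3-deficient BMPC lay below GCB but did not pass (-1.43, SE 0.53, limma adjusted p 0.068). Without Dnmt3-sufficient BMPC replicate 1 the first changed sign, and the second passed (limma adjusted p 0.0086). The second also passed without Dnmt3-sufficient BMPC replicate 3 (0.045) and in both fits to all 18 libraries (limma adjusted p 0.028 and 0.032).

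The 6 BMPC libraries were compared with marker levels to see what moved with these values. The cell cycle markers summed to 846, 1034 and 1293 FPKM in Dnmt3-sufficient BMPC replicates 1 to 3 and to 721, 712 and 593 in Dnmt3-deficient BMPC replicates 1 to 3. The libraries with the most Exo1 and Polh in their genotype thus had the highest sum in one genotype and the lowest in the other. GCB markers summed to 71.1, 0.0800 and 17.7 FPKM in Dnmt3-sufficient and to 16.9, 34.9 and 33.3 in Dnmt3-deficient BMPC, with 1 or 2 of the 6 markers above 0 in each library. Their part in the spread was not tested.

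Against nB, BMPC differed in fewer of the 7 genes. Apex2 fell in Dnmt3-sufficient cells (-2.70, SE 0.37, limma adjusted p 0.00050, at least 36.6-fold lower) where 19.6% of all genes fell. In Dnmt3-deficient cells, where 21.6% of all genes fell, Apex2 (-2.69, SE 0.37, limma adjusted p 0.00059, at least 18.2-fold lower) and Ung (-1.59, SE 0.43, limma adjusted p 0.019) fell. Against the floor, Ung there was at least 3.13-fold lower, a bound that rests on nB replicate 3 and was 1.48-fold without it. None rose. In Dnmt3-sufficient cells the difference of Ung was -0.76 (SE 0.43, limma adjusted p 0.21) with nB libraries of 3 to 31 reads, and at the mean nB level the BMPC libraries of that genotype would have held 4.1 to 7.1 reads of Ung, not far above the floor of 3. The median change over the 7 genes was -0.76 and -1.27 against -0.70 and -0.84 over all genes. Ung in Dnmt3-deficient cells did not pass with weights by cell type (limma adjusted p 0.24). Apex1 in Dnmt3-sufficient cells (0.93, limma adjusted p 0.23) was 1.61 and passed without BMPC replicate 1 (0.015), and Rev1 there (-0.78, limma adjusted p 0.63) was -2.25 and passed without BMPC replicate 2 (0.037).

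The genotypes were compared within each cell type to ask whether the 7 genes depend on Dnmt3a and Dnmt3b. None of the 7 genes passed in nB, GCB or BMPC, and 0 of all 11522 genes (0%) passed in any of the 3 limma fits. At an unadjusted p under 0.05 there were 592, 724 and 688 genes in nB, GCB and BMPC, and voom on the recovered reads called 0, 0 and 26. In the fit to all 18 libraries with 1 spread per gene, 6, 0 and 459 genes passed in nB, GCB and BMPC, and none of them was among the 7. With edgeR, the study reported genes that differed by genotype in BMPC and very few in nB and GCB. The 3 limma fits within cell types passed no gene, so they cannot show that the 7 genes are independent of Dnmt3a and Dnmt3b.

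Polh in nB had the lowest p of the 7 genes in the genotype comparisons. Its Dnmt3-deficient libraries held 154, 212 and 56 reads, and its Dnmt3-sufficient libraries 5, 6 and 16, so the groups did not overlap, as for 4.66% of all genes in that direction. The mean of 7.34 ± 4.44 FPKM (SD, n = 3) in Dnmt3-deficient against 0.428 ± 0.227 in Dnmt3-sufficient nB is a ratio of 17.2 and a difference of 2.40 on the log2 scale (SE 0.49, unadjusted limma p 0.0038, adjusted p 0.74). The adjusted p ranged from 0.11 to 1 over the alternatives. In GCB the level was 45.7 ± 4.60 FPKM in Dnmt3-deficient and 56.4 ± 10.3 in Dnmt3-sufficient cells, which overlapped.

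Erythroid markers moved with genotype in the same nB libraries, with a summed FPKM of 26.5 to 290 in Dnmt3-deficient and 0.705 to 1.42 in Dnmt3-sufficient nB, and their part in the Polh difference was not tested. GCB markers summed to 38.5 to 81.4 FPKM in Dnmt3-deficient and 34.01 to 70.2 in Dnmt3-sufficient nB, and cell cycle markers to 193 to 208 and 129 to 170. The first overlapped between genotypes and the second did not.

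**Figure D4:**
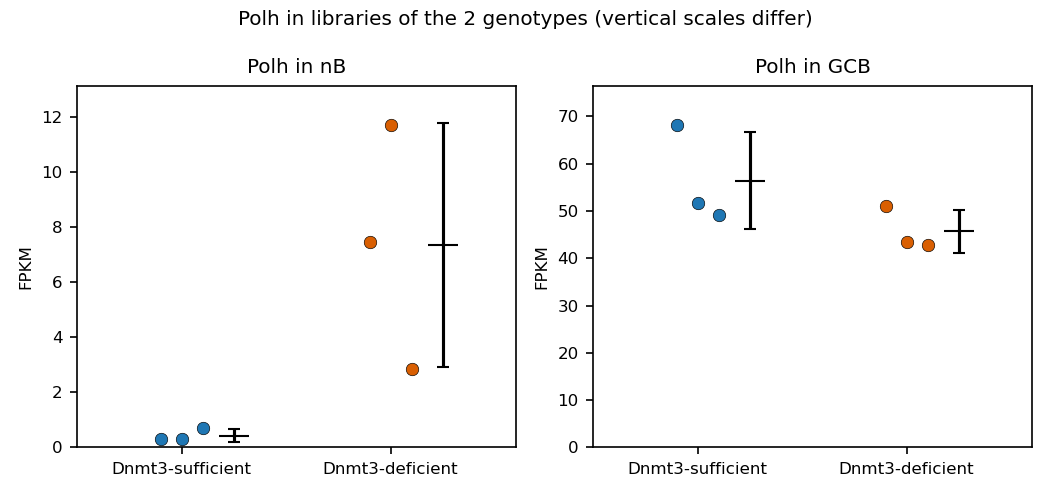
FPKM of Polh in nB (left) and GCB (right) by genotype, with 1 point per library and the mean ± SD of 3 libraries beside it; the vertical scales differ and start at 0. The Dnmt3-deficient nB libraries (2.84 to 11.7) lie above the Dnmt3-sufficient ones (0.290 to 0.690), and in GCB the genotypes overlap.

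Whether the rise from nB to GCB differed between genotypes was tested as an interaction. For Polh the rise was 2.68 smaller in Dnmt3-deficient cells on the log2 scale (interaction -2.68, SE 0.53, unadjusted limma p 0.00046, adjusted p 0.31), which did not pass, where 4 of all genes (0.0347%) passed. Without Dnmt3-deficient nB replicate 3, the library of the 3 with the lowest Polh, the interaction was -3.16 and passed (limma adjusted p 0.011). The other 6 genes had interactions of -0.56 to 0.35 with adjusted p of 0.94 to 1. For BMPC against nB and against GCB none of the 7 passed (lowest limma adjusted p 0.775 and 0.795), where 0.226% of all genes passed in each.

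Apex1 was the other gene whose genotypes did not overlap. It was lower in all 3 Dnmt3-deficient than in all 3 Dnmt3-sufficient libraries in nB (-0.51, SE 0.20, limma adjusted p 0.91) and in GCB (-0.26, SE 0.14, limma adjusted p 0.80), and no call was made. The share of all genes that lay lower without overlap was 4.17% in nB and 5.05% in GCB. In BMPC its genotypes overlapped, at 50.8 ± 32.0 FPKM in Dnmt3-sufficient and 16.7 ± 6.37 in Dnmt3-deficient libraries.

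For each of the 7 genes, the 3 tested genes with the highest Pearson correlation of log2(FPKM + 1) over all 18 libraries were listed. Exo1 was most like Pmf1, Depdc1a and Esco2 (r 0.93, 0.91 and 0.90), and it was itself the third gene for Polh (0.89) after Gmds and Anxa2 (0.90 and 0.89). Msh6 was most like Nup93, Fmr1 and Pold3 (0.96, 0.95 and 0.92). Apex2 was most like Lta, Ell3 and Map1s (0.98 in each). Ung was most like Zfp382, Nsl1 and Poln (0.92, 0.91 and 0.90), Rev1 like Ankrd26, Atxn7l1 and Ncapd2 (0.95, 0.90 and 0.90), and Apex1 like Polr2d, Gtf2h5 and Rbmxl1 (0.90, 0.89 and 0.88). The 18 libraries share 3 cell types and differ in depth, and over the 12 nB and GCB libraries alone 0 of the 3 genes were the same for any of the 7.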

How the data were processed

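RNA was measured by RNA-seq of amplified cDNA from 18 libraries of 5000 cells, 3 per group. Per the labels, the authors aligned reads to mm9 and processed them with Picard, R 3.2.2 and edgeR 3.12.1, and their methods name TopHat, summarizeOverlaps and UCSC KnownGenes. The authors deposited FPKM values per gene, without the read counts. The same table holds the authors' fold changes and p-values, which were not used.

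Each FPKM value multiplied by exon length and divided by the smallest step of its library gave whole reads (tolerance 0.01) for 100% of values in all libraries, from which depths and floors of 3 reads were taken. Floors cover counting error only, since the reads carry no molecular identifiers. Genes that exceeded 1 FPKM in 2 or more libraries were tested on log2(FPKM + 1) with limma 3.58.1 in R 4.3.3 (trended, moderated, two-sided), fitted to the 6 libraries of a cell type for genotype and to the 12 libraries of both cell types for cell types and interactions, with Benjamini-Hochberg adjustment over all 11522 genes. Calls needed an adjusted p not above 0.05 and a log2 change of 1 or more. The fits were run on simulated counts drawn with the same spread for all genes of a cell type. Such counts lack the uneven levels that single genes had between BMPC libraries, so that run does not bear on them.

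The 7 genes and the gene lists were chosen with earlier results of these data known. Genes named were the 7, the 3 of each list with the largest change among those that passed in Dnmt3-sufficient GCB against nB (for repair and cell cycle lists), and the 3 genes most correlated with each of the 7. Neighbours that share exon bases were named after their values were seen. Groups followed the labels. Promoters came from a RefSeq table (GRCm38.p6) and were placed on NCBIM37 by exact, unique match, with gene positions from its annotation. Some genes of the pathway are not reported here. Alternatives were another pseudocount, 2 other filters, median of ratios scaling, fits to all 18 libraries with and without weights, sex as a covariate, voom on recovered reads, a stricter threshold, no minimum change, a replicate block and leaving out each library. Fold bounds were also recomputed without each library, a choice made after seeing the data.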

Additional observations from a re-analysis of the deposited data

How the results depend on the processing

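Of the 7 genes, the number past the threshold was within 1.5 times of that reported under the alternatives other than these. In the fit to all 18 libraries with 1 spread per gene, it was 3 and 2 for GCB against nB in Dnmt3-sufficient and Dnmt3-deficient cells, and 5 and 6 for BMPC against GCB. With weights by cell type it was 6 for BMPC against GCB and 1 for BMPC against nB, both in Dnmt3-deficient cells. For BMPC against nB it was 2 in Dnmt3-sufficient cells with a pseudocount of 0.1 or with voom (Ung and Apex2), and 1 in Dnmt3-deficient cells at an adjusted p of 0.01. Leaving out 1 library gave 5 to 6 and 5 to 5 for GCB against nB, 1 to 2 and 2 to 2 for BMPC against nB, 3 to 4 and 2 to 5 for BMPC against GCB (Dnmt3-sufficient and Dnmt3-deficient), 0 to 1 for the interaction of GCB against nB, and 0 for the other interactions and the genotype comparisons.

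Some differences that had not passed changed sign. For BMPC against nB in Dnmt3-sufficient cells, Exo1 and Polh were -0.038 and -0.069 with a pseudocount of 0.1 and -0.87 and -0.24 with voom. Leaving out 1 library gave -0.53 to 1.29 for Exo1, -0.50 to 1.27 for Polh and -1.55 to 0.11 for Msh6 there, -1.48 to 0.70 for Polh and -0.14 to 0.41 for Apex1 in Dnmt3-deficient BMPC against nB, -0.79 to 0.33 for Apex1 in Dnmt3-sufficient BMPC against GCB, and -0.063 to 0.58 for Apex2 in Dnmt3-sufficient GCB against nB. The cause was not tested.

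Over all genes, the fit with 1 spread called 832 higher and 799 lower for GCB against nB in Dnmt3-sufficient cells, against 1317 and 1733, and 727 and 762 in Dnmt3-deficient cells, against 1156 and 1556. For the interaction of GCB against nB, 4 genes passed, and 0 did in that fit, with voom or with sex as a covariate. Replicate numbers did not pair the GCB libraries of the genotypes (correlations of deviations 0.03, -0.0001 and -0.02), and with a replicate block 0 of the 7 genes passed. Each group had 3 libraries, and BMPC libraries had 1355231 to 3803197 reads, which limits what could be detected there.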

Other observations

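In BMPC against GCB, some genes of each other repair list fell and 0 passed as higher. In Dnmt3-sufficient cells, 6 of 20 other base excision repair genes fell, 7 of 15 other mismatch repair and repair synthesis genes, 4 of 14 other translesion genes, 5 of 16 deaminase relatives and cofactors and 5 of 18 genes that act on switch breaks, where 15.6% of all genes fell. In Dnmt3-deficient cells the counts were 9, 9, 3, 7 and 5 in the same order, where 20% of all genes fell. The cell cycle markers fell in 11 of 18 and 15 of 18 cases. Some markers of other cells moved the other way. Higher in BMPC were 3 of 6 T cell, 4 and 3 of 5 erythroid, and 3 and 2 of 6 tested neutrophil markers. Of 4 tested macrophage markers, 1 was higher in each genotype. Among 6 early B cell markers, 2 were higher in each genotype and 1 fell in Dnmt3-deficient cells. Of all genes, 5.36% (Dnmt3-sufficient) and 5.17% (Dnmt3-deficient) were higher there, and the part of these markers in the counts was not tested.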
